A study of Mus musculus with 30 samples.

Results

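The insulin response of mouse hepatocyte-like cells depleted of the Forkhead transcription factor FoxK1 was read from RNA-sequencing read counts. The members are the 8 FoxK1 knockdown (FoxK1 KD) samples among the 30 samples of the series, taken by their labels as 4 basal samples (no treatment, labelled 0 min) and 4 insulin samples (100 nM for 6 h), and every one of the 49089 gene identifiers in the count tables was considered, of which 11368 passed a filter on low counts and were tested. The cells are AML12, an immortalized line from the liver of a mouse that carries a transforming growth factor alpha transgene. All samples, basal ones included, were starved of serum overnight in DMEM with BSA, and FoxK1 was lowered by transient transfection of siRNA, a knockdown and not a deletion. The other groups are Control (4 basal, 3 insulin), FoxK2 KD (4 and 4) and the double knockdown DKD (4 and 3), treated in the same way. The labels date the basal samples to 0 min, while the protocol speaks of a mock treatment, so whether basal cells were harvested with the insulin cells or before them is not settled here. If they were harvested before, insulin and 6 h more in culture cannot be told apart in any genotype.

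Insulin binds its receptor and, through IRS proteins, PI3 kinase and Akt, holds FoxO factors out of the nucleus, activates mTOR complexes and raises the lipid-synthesis factors of the SREBP family. In liver this lowers genes of fasting and raises genes of glycolysis, sterol and fatty acid synthesis, amino acid supply and growth. FoxK1 and FoxK2 are Forkhead proteins that bind sequences like those of FoxO but move into the nucleus when insulin is given, and the question addressed is how insulin changes gene expression when FoxK1 is reduced.

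Foxk1 (chromosome 5, 142401497 to 142462011, GRCm38), the targeted gene, was measured at 38.9, 27.4, 38.8 and 42.0 CPM (counts scaled to a common library size) in the 4 basal samples and at 30.7, 28.0, 29.6 and 35.3 in the 4 insulin samples. The basal mean was 45.2% of the Control basal mean (36.8 ± 6.43 against 81.4 ± 10.4 CPM, SD, n = 4 each), and the insulin mean was 58.2% of the Control insulin mean (30.9 ± 3.11, n = 4, against 53.0 ± 4.46 CPM, n = 3). No FoxK1 KD sample reached the lowest Control sample of the same treatment, so no library went against its label for this gene. Within FoxK1 KD cells the insulin groups overlapped for Foxk1 and the log2 fold change was -0.26 ± 0.14 (SE; adjusted p = 0.146 by the quasi-likelihood test of edgeR, with the Benjamini-Hochberg adjustment over all tested genes, as for every adjusted p below), whereas without basal replicate 2 it was -0.38 (adjusted p = 0.0324). Foxk2, the paralogue of Foxk1, stood at 100.7 to 128.2 CPM in basal and 123.2 to 149.6 CPM in insulin samples, with a log2 fold change of 0.25 (adjusted p = 0.0238). This call for Foxk2 was lost when any of 4 samples was left out (basal replicates 1 and 2, insulin replicates 1 and 2), with log2 fold changes of 0.18 to 0.23. It was also lost with the offset for GC content and length described below (0.20), with all libraries thinned to the smallest total (0.17) and with every gene of at least 1 count tested (0.22).

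Each FoxK1 KD basal sample held 3070960 to 4423978 counts and each insulin sample 2345903 to 2673390, so basal samples were 1.495 times deeper at the median. Across the 30 samples the first principal component (26.9% of the variance) placed FoxK1 KD basal samples at -23.9 to -20.9 and insulin samples at 16.2 to 19.1, with DKD basal samples in between at -8.48 to -7.55. On the second (11.7%), FoxK1 KD basal replicate 2 stood at -20.6 and the other basal replicates of that group at -9.60 to -5.35. Control basal replicate 1 stood at 22.05 there, among the DKD basal samples (16.4 to 27.1), and the other Control basal replicates at -9.83 to -7.54. A split among the samples crosses the comparison: 52 genes were lower and 83 higher in all 12 basal samples of Control, FoxK1 KD and FoxK2 KD than in any of the other 18 samples, the DKD basal samples among the 18. Together these 135 genes are 1.19% of those tested. Of the 52, 10 are pseudogenes, and Gm42939, chosen after its values were seen, had no count in any FoxK1 KD basal sample and 7.39 to 10.8 CPM in the insulin samples. Of these genes 50 and 82 were called in FoxK1 KD in the direction of the split, but 5 and 7 in DKD. That contrast follows largely from how the genes were chosen, with FoxK1 KD basal and insulin samples on opposite sides and DKD samples on 1 side. Insulin and whatever sets those 12 samples apart cannot be told apart in FoxK1 KD cells, so the insulin effect in DKD, which does not cross the split, is set beside the results below. Nothing in the labels says that replicates came from separate cultures, so p-values measure the spread between these samples, and in bulk RNA a smaller share of cells expressing a gene and less RNA per cell cannot be told apart.

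The labelled cell type was checked on 10 hepatocyte markers. Krt18 (924 to 1185 CPM over the 8 samples), Apob (527 to 819), Krt8 (477 to 942, a gene of the sample split) and Hnf4a (128 to 146) were present in all, while the secreted proteins Alb (2.97 to 24.4 CPM), Ttr, Trf and Afp were low and Apoa1 had 16 counts in all 8 samples together. Of 13 mesenchymal and stellate cell markers none passed the filter, 7 were at 0 in all 8 samples, and their summed level was 1.07 to 1.98 CPM in basal and 0.739 to 3.39 in insulin samples. Of 13 macrophage and endothelial markers 1 passed (Csf1r, which fell, fold 0.498), 5 were at 0, and the sum was 17.9 to 22.1 CPM in basal and 10.4 to 14.0 in insulin samples. Cholangiocyte markers were expressed (7 of 8 tested, Epcam at 0), with a sum of 1815 to 2137 CPM in basal and 2489 to 2739 in insulin samples. Of these, Spp1 (osteopontin), Krt19 and Slc4a2 rose, by log2 fold changes of 0.56, 0.51 and 0.31, the call of Slc4a2 being lost with the offset for GC content and length described below. The part of these markers in the results was not tested.

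Insulin raised 1842 genes and lowered 1746 in FoxK1 KD cells at an adjusted p below 0.05, which is 16.2% and 15.4% of the genes tested. At the looser threshold of the study with its fold limit (adjusted p below 0.25 and a fold change above 1.5) 933 were higher and 530 lower, 8.21% and 4.66%. The median size of a called change was 0.48 on the log2 scale, and the median change of all tested genes was 0.01. By gene type 1716 protein-coding genes rose and 1704 fell of 10688, whereas 64 pseudogenes were higher and 17 lower of 251. Reads of pseudogenes may be shared with their parent genes and are uncertain, as are antisense transcripts, 14 of which were higher and 1 lower of 82, since strand use in counting is not given in the sources used here.

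**Figure D1:**
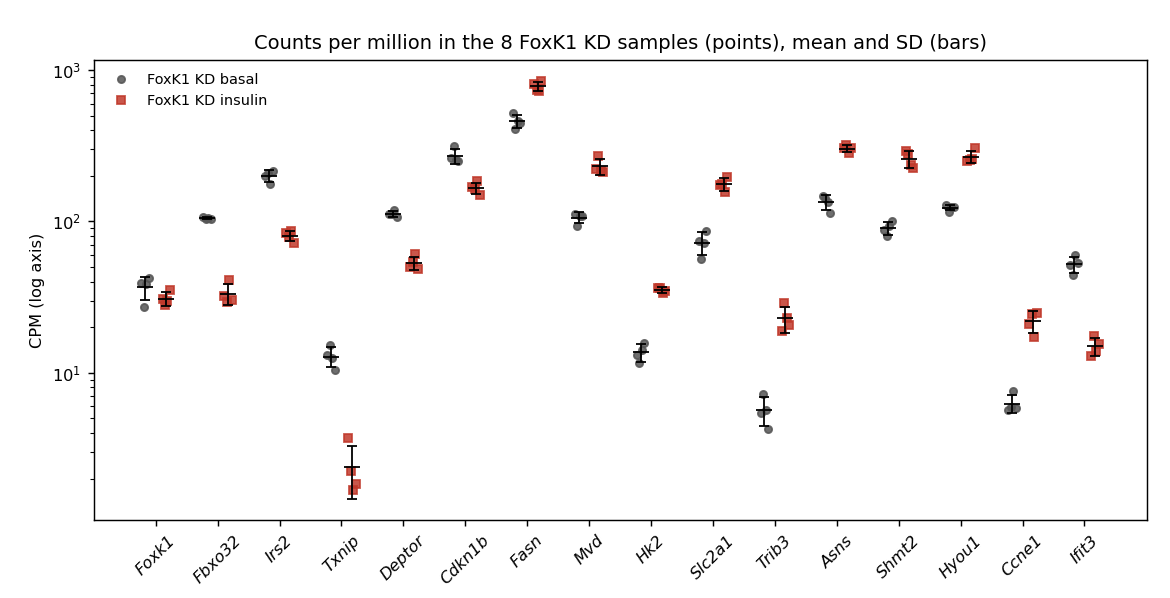
CPM on a log axis for 16 genes in the 4 FoxK1 KD basal samples (grey circles) and the 4 FoxK1 KD insulin samples (red squares), with the mean and SD in black. Except for Foxk1, whose groups overlap, the basal and insulin samples of each gene shown do not overlap. For the genes among the 15 largest rises and 15 largest falls, absence of overlap was a condition of the choice.

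The 15 protein-coding genes with the largest rises had log2 fold changes of 1.44 to 2.49, and the 15 with the largest falls had -1.235 to -2.395. Only called genes whose basal and insulin samples did not overlap could enter these lists. Absence of overlap in their members, here and below, was fixed by that choice. Each of these 30 genes had the same sign in Control, FoxK2 KD and DKD cells. Among all genes called in FoxK1 KD 91.9%, 96.2% and 78.9% did so, and among all tested genes 73.2%, 77.7% and 64.3%. Control and FoxK2 KD cross the same sample split as FoxK1 KD. Of the 15 rises 14 were called in Control, 14 in FoxK2 KD and 11 in DKD, and of the 15 falls 14, 14 and 13. The list of rises also holds Ftl1-ps1, which is one of the 52 genes of the sample split and whose reads may be those of its near-identical parent. The rises were led by Chac1, which degrades glutathione, and Trib3, a pseudokinase of amino acid stress, and included Ccne1 (cyclin E1), Id1, an inhibitor of helix-loop-helix factors, Fosl1 of the AP-1 family, Vegfa and the mitochondrial one-carbon enzymes Mthfd2 and Shmt2. The falls were led by Txnip and included Ifit3b, Ifit3, Tcp11l2, Fbxo32, Mturn, Nox4, Pik3ip1, Irs2 and Klhl24. The FoxO target Depp1 fell by more than any of these (log2 fold change -2.82 ± 0.48, adjusted p = 2.7e-05) but was too low on average for that list.

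Promoter sequence of 4 genes is shown, from lists in which Forkhead, interferon and sterol elements are known. The 4 were taken from named genes whose window holds a match, so the matches follow from the choice. Most genes with a window in the FoxO-type and cholesterol lists hold no match to the Forkhead motif or the sterol core. RefSeq windows on GRCm38.p6 (250 bases before to 50 after each start) were found for 8740 of the 11368 tested genes, and the 250 bases before the start are printed, with matches to the motif named for each gene in capitals. Txnip is at chr3:96557707-96557956 (plus strand, Forkhead motif GTAAACA), Hmgcs1 at chr13:119690101-119690350 (plus strand, sterol element core CACCCCAC), Ifit3 at chr19:34583279-34583528 and Ifit3b at chr19:34607707-34607956 (both plus strand, interferon element core GAAANNGAA, here on the opposite strand).
Txnip: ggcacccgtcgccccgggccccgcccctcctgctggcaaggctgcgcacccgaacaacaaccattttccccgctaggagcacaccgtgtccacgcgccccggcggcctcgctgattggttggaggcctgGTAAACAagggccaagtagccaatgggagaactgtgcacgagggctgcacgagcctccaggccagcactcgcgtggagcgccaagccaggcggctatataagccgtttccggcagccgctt
Hmgcs1: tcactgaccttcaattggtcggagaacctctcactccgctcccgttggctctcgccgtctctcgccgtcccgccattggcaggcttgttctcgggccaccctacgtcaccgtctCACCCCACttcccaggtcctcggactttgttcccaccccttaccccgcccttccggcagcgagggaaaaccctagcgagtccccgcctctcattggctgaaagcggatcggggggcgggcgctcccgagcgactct
Ifit3: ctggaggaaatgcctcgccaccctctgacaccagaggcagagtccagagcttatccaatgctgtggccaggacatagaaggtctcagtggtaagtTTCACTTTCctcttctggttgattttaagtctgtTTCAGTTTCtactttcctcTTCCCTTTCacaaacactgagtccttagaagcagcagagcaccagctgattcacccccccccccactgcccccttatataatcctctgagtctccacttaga
Ifit3b: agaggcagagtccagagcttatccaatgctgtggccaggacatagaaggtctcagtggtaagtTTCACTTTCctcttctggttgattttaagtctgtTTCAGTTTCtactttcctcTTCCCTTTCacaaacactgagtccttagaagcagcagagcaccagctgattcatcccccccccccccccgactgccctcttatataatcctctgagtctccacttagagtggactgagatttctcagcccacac

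Searched on both strands over all 300 bases, GTAAACA was in 3.18% of genes with a window, in 4.42% of those called lower, in 2.23% of those called higher and in 4 of 25 FoxO-type genes. The core CACCCCAC was in 3.66% of all genes and in 2 of 17 genes of cholesterol synthesis. The interferon core was in 8.34% of all genes and in 12 of 18 interferon-stimulated genes. The E-box CACGTG was in 12.3% of all genes, 13.1% of those called higher and 13.3% of those called lower, and the AP-1 motif TGANTCA in 5.96%, 5.38% and 6.93%. In the FoxO-type, cholesterol and interferon lists the E-box was in 6 of 25, 4 of 17 and 1 of 18 genes. The AP-1 motif was in 1, 2 and 5 genes of these lists. These shares describe letters in a window and say nothing of binding.

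Genes of the FoxO type, which act in fasting and stress, were mostly called lower. Of 34 listed, 31 were tested, 19 fell, 1 rose (Trib1, a pseudokinase) and 11 were not called, against 15.4% of all tested genes called lower. The call of Trib1 (0.36) was lost without basal replicate 2 (0.25) or insulin replicate 4 (0.32), with the offset for GC content and length (0.26), with thinning (0.26) and with every gene of at least 1 count tested (0.33). The median log2 fold change of the list was -0.45, and it was -0.37 in Control, -0.40 in FoxK2 KD and -0.30 in DKD. Fbxo32 (chromosome 15, 58175879 to 58214932), a muscle-atrophy ubiquitin ligase and classical FoxO target, was at 106.8, 104.3, 104.7 and 104.1 CPM in basal samples and 32.1, 29.5, 41.1 and 30.4 in insulin samples. The groups were far apart, and the log2 fold change was -1.66 ± 0.10 (adjusted p = 1.6e-14). Txnip, a thioredoxin-binding protein that restrains glucose uptake, was at 13.1, 15.2, 12.5 and 10.4 CPM in basal and at 3.69, 2.24, 1.69 and 1.86 in insulin samples. It fell to 0.190 of the basal level without overlap (adjusted p = 2.9e-08), and its window above holds the Forkhead motif 121 bases before the start. Irs2 (chromosome 8, 10984681 to 11008458), the insulin receptor substrate that FoxO raises in fasting, was at 199.8, 210.3, 176.2 and 215.4 CPM in basal and 83.8, 78.4, 86.8 and 72.0 in insulin samples. It fell to 0.401 of the basal level without overlap (log2 fold change -1.32 ± 0.10, adjusted p = 2.2e-11). Pik3ip1, an inhibitor of PI3 kinase, fell from 17.8 to 22.6 CPM in basal samples to 5.60 to 10.02 in insulin samples (log2 fold change -1.45).

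The cell cycle inhibitor Cdkn1b (p27) and cyclin G2 (Ccng2) are FoxO-type genes as well. Cdkn1b was at 263, 313, 253 and 251 CPM in basal and 168, 163, 184 and 150 in insulin samples. It fell by 0.70 on the log2 scale (adjusted p = 3.3e-06), with values of -0.56 in Control, -0.49 in FoxK2 KD and -0.05 in DKD, and the difference from DKD was -0.64 (adjusted p = 0.0125, but 0.0642 with the offset for GC content and length described below). Ccng2 was at 278 to 323 CPM in basal and 184 to 220 in insulin samples (log2 fold change -0.54, adjusted p = 0.00014), against -0.12 in DKD, and it is one of the 135 genes of the sample split. The catalase gene Cat fell by 0.45 on the log2 scale. Klf15 and Pdk4, fasting genes of amino acid and pyruvate use, were not called (log2 fold changes -0.70 and -0.60, adjusted p = 0.129 and 0.223), at under 8 CPM in every sample, though Klf15 was in a model of the FoxK1 KD samples alone (adjusted p = 0.0352). The gluconeogenic genes Pck1 and G6pc of this list had 2 and 1 counts in all 8 samples together, and Igfbp1 had 1.

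Of 34 components from the insulin receptor to mTOR, 33 were tested, 11 fell and 3 rose. These are 33.3% and 9.09%, against 15.4% and 16.2% of all tested genes, and the median log2 fold change was -0.11. The receptor Insr fell from 138 to 154 CPM in basal samples to 92.6 to 108.8 in insulin samples (log2 fold change -0.56, adjusted p = 5.1e-05), and Irs1 fell by 0.48 on the log2 scale. Deptor, a protein that binds and inhibits mTOR, was at 112.0, 111.2, 119.5 and 106.2 CPM in basal and 50.2, 53.8, 60.5 and 48.2 in insulin samples. Its groups did not overlap, and the log2 fold change was -1.08 ± 0.10 (adjusted p = 2.8e-10), against -1.47 in Control and -0.58 in DKD. Sgk1, a kinase related to Akt, fell by 0.88 on the log2 scale. Akt1 and Eif4ebp1, a translation repressor under mTOR, rose by log2 fold changes of 0.42 and 0.53. The Akt1 value in DKD was -0.04, and the call of Akt1 was lost with the offset for GC content and length.

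Cholesterol genes rose almost throughout. All 25 genes of cholesterol synthesis and uptake were tested, 22 rose and none fell, against 16.2% of all tested genes called higher, and the median log2 fold change was 0.50 (0.52 in Control, 0.56 in FoxK2 KD and 0.54 in DKD). Mvd (chromosome 8, 122433601 to 122443422), mevalonate diphosphate decarboxylase, was at 112.0, 93.1, 109.4 and 109.4 CPM in basal and 222, 271, 217 and 213 in insulin samples. It rose 2.17-fold without overlap (log2 fold change 1.12 ± 0.09, adjusted p = 4.7e-11). Tm7sf2 (sterol reductase) and Pmvk (phosphomevalonate kinase) rose by log2 fold changes of 1.24 and 1.14. Hmgcs1, whose window holds the sterol core 136 bases before the start, overlapped between groups at 655 to 778 and 754 to 877 CPM (log2 fold change 0.24, adjusted p = 0.0387), and its call was lost without any one of 6 of the 8 samples (0.20 to 0.24). Insig1, which retains SREBP in the endoplasmic reticulum, had a log2 fold change of 0.35 (adjusted p = 0.0101), or 0.29 without insulin replicate 1 or 2, where it was not called.

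In fatty acid synthesis 12 of 19 tested genes rose (63.2%, against 16.2% of all tested genes) and none fell. The median was 0.26, or 0.15 with the offset, and 0.43 in DKD. With 1 sample left out the 12 rises were 8 to 11, fewest without basal replicate 4. With the offset 9 rose and 1 fell. Without basal replicate 1 or insulin replicate 1, 1 was called lower. Fasn (fatty acid synthase) was at 520, 406, 463 and 446 CPM in basal and 804, 733, 732 and 850 in insulin samples. The groups did not overlap, and the log2 fold change was 0.76 ± 0.09 (adjusted p = 1.3e-07). Acly, Scd1 and Acss2, which supply acetyl-CoA or desaturate fatty acids, rose by 0.62, 0.68 and 1.16 on the log2 scale, and Mlxipl, the carbohydrate response factor ChREBP, by 0.92. The second desaturase Scd2 was at 3889 to 4258 CPM in basal and 4324 to 4566 in insulin samples, a log2 fold change of 0.11 that was not called (adjusted p = 0.229). In DKD the Scd2 effect was 0.65, and the difference of -0.54 passed the test (adjusted p = 0.00234, and 0.00277 with the GC and length offset). Srebf1, the lipogenic SREBP gene, had a log2 fold change of 0.29 (adjusted p = 0.0186), lost without basal replicate 2 (0.24) and without insulin replicate 1 (0.24) or 4 (0.26). The call of Srebf1 was also lost with the offset (0.12, adjusted p = 0.284) and with thinning (0.24).

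Of 23 tested genes of glucose uptake and glycolysis, 16 rose (69.6%, against 16.2% of all tested genes) and none fell. The median was 0.48, and 0.37, 0.52 and 0.47 in Control, FoxK2 KD and DKD. Hk2 (chromosome 6, 82725025 to 82774454), hexokinase 2, was at 13.1, 11.6, 14.1 and 15.8 CPM in basal and 36.2, 36.6, 33.4 and 34.9 in insulin samples. It rose 2.57-fold without overlap (log2 fold change 1.36 ± 0.12, adjusted p = 3.0e-10). Slc2a1, the glucose transporter GLUT1, was at 74.4, 56.4, 72.0 and 86.7 CPM in basal and 175, 178, 156 and 197 in insulin samples. Its log2 fold change of 1.28 exceeded that of 0.71 in DKD (difference 0.57, adjusted p = 0.0361, and 0.204 with the offset). Pkm and Ldha, the last steps from phosphoenolpyruvate to lactate, rose by 0.73 and 0.84, and the aldolase gene Aldoa was not called (0.27, adjusted p = 0.146, or 0.00652 in a model of the FoxK1 KD samples alone). In the pentose phosphate pathway 5 of 7 genes rose (71.4%) and none fell (median 0.55). Pgd was at 0.84, G6pdx at 0.75 and the transketolase Tkt at 0.55.

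**Figure D2:**
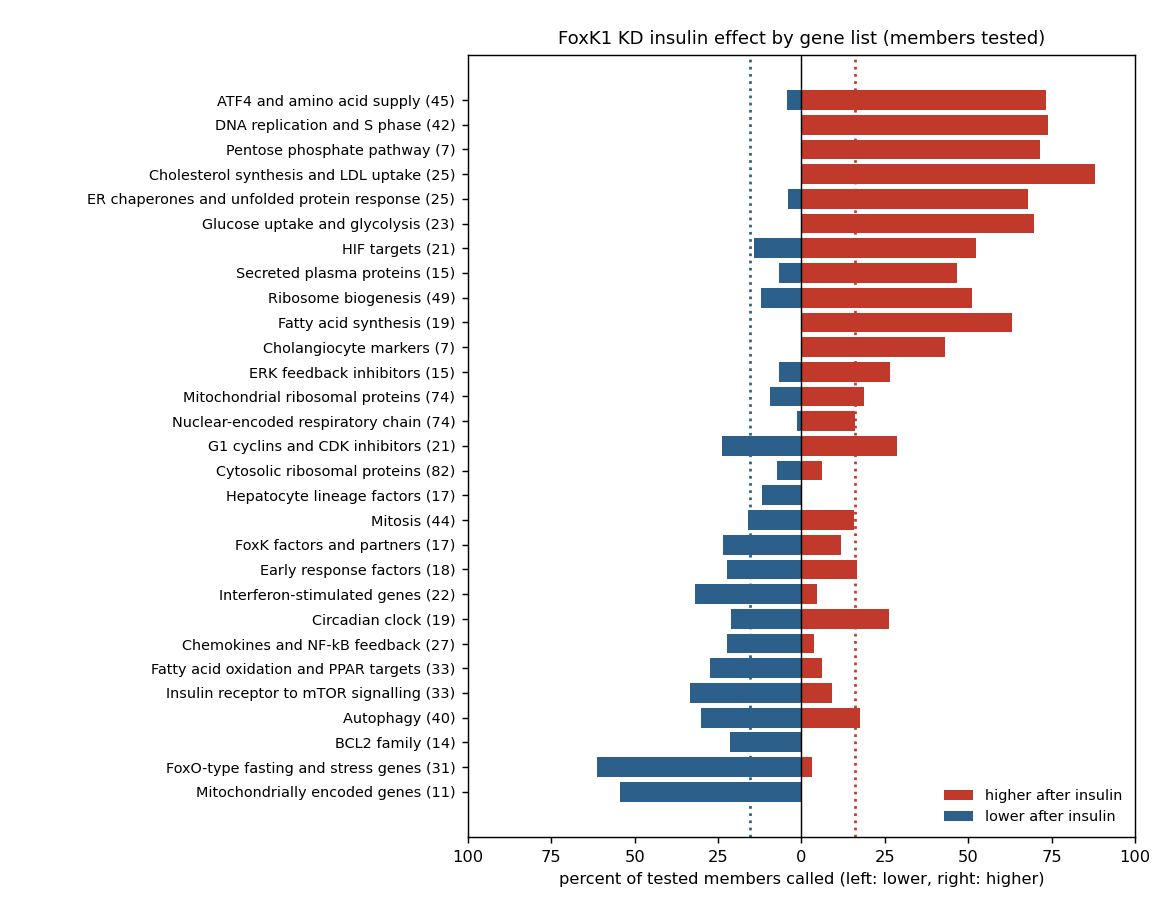
Percent of tested members of each gene list called higher (red, to the right) or lower (blue, to the left) after insulin in FoxK1 KD cells, with the number tested in brackets and dotted lines at the shares of all tested genes (16.2% and 15.4%). Cholesterol synthesis has 22 of 25 members higher and none lower, and FoxO-type genes 61.3% lower.

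Amino acid supply had the largest median among the lists that rose. Of 45 genes of the ATF4 programme, 33 rose and 2 fell, 73.3% and 4.44% against 16.2% and 15.4% of all tested genes. The median log2 fold change was 0.70 (0.66 in Control, 0.68 in FoxK2 KD and 0.56 in DKD). Trib3 (chromosome 2, 152337422 to 152344032) was at 5.43, 7.26, 5.65 and 4.28 CPM in basal and 18.8, 29.1, 22.9 and 20.8 in insulin samples. It rose 4.08-fold without overlap (log2 fold change 2.03 ± 0.18, adjusted p = 2.6e-10). Asns, asparagine synthetase, was at 147, 143, 135 and 114 CPM in basal and 305, 320, 283 and 304 in insulin samples. It rose 2.25-fold without overlap (adjusted p = 3.0e-12), with log2 fold changes of 1.17 here and 1.23 in DKD. Shmt2, a mitochondrial serine hydroxymethyltransferase, rose from 79.9 to 100.1 CPM to 224 to 292 (log2 fold change 1.51), and the cystine transporter Slc7a11 and Mthfd2 rose by 1.65 and 1.53. The 2 that fell were the glutamine transporter Slc38a2 (log2 fold change -0.27, against 0.14 in DKD) and Cebpg, a partner of ATF4 (-0.21), and both calls were lost with the GC and length offset. The call of Cebpg was lost without basal replicate 1 or 2 or insulin replicate 1 or 3 as well (-0.21 to -0.19). The stress gene Ddit4 was not called (0.40, adjusted p = 0.0697, or 0.00226 in a model of the FoxK1 KD samples alone).

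Chaperones and other genes of the endoplasmic reticulum rose in 17 of 25 tested cases with 1 lower (median 0.49). These are 68% and 4%, against 16.2% and 15.4% of all tested genes. Hyou1, a chaperone of the HSP70 family, was at 129, 116, 124 and 124 CPM in basal and 250, 256, 257 and 306 in insulin samples, a rise of 2.17-fold without overlap (adjusted p = 6.0e-11). Creld2, Sec61b of the translocon and the disulfide isomerase P4hb rose by log2 fold changes of 1.07, 1.04 and 0.42. The lectin chaperone Canx was the 1 called lower (-0.22, adjusted p = 0.0272), which was lost without basal replicate 4 (-0.16) or insulin replicate 2 (-0.21) and with the offset (-0.10).

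Of 42 genes of replication and S phase, 31 rose (73.8%, against 16.2% of all tested genes) and none fell. The median was 0.57 (0.51 in Control, 0.51 in FoxK2 KD and 0.31 in DKD). Cdc6, which loads the replicative helicase, was at 37.6, 42.9, 38.4 and 31.6 CPM in basal and 91.2, 92.2, 92.7 and 72.0 in insulin samples. It rose 2.32-fold without overlap (log2 fold change 1.21, adjusted p = 1.7e-08), and Mcm6 of that helicase rose by 0.37. Rrm1, a ribonucleotide reductase subunit, was not called (0.14, adjusted p = 0.179), but was with the offset (0.30). Of 44 mitotic genes 7 rose and 7 fell, 15.9% each way and near the 16.2% and 15.4% of all tested genes, the rises including Mybl2 (0.80) and Cdk1 (0.63) and the falls Nusap1 (-0.57) and Hmmr (-0.53). Top2a was at 578 to 626 CPM in basal and 536 to 603 in insulin samples and was not called (-0.05).

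Among G1 cyclins and their inhibitors, 6 of 21 rose and 5 fell, 28.6% and 23.8% against 16.2% and 15.4% of all tested genes. The 5 falls were 3 without insulin replicate 4. Cyclin E1 (Ccne1, chromosome 7, 38097984 to 38107534) was at 5.66, 5.94, 7.53 and 5.89 CPM in basal and 21.1, 24.6, 17.4 and 24.9 in insulin samples. It rose 3.50-fold without overlap (log2 fold change 1.81 ± 0.21, adjusted p = 3.7e-08). The effect in DKD was 0.84, and the difference of 0.97 passed the test (adjusted p = 0.0484, and 0.193 with the offset). Ccnd3 and Cdk2 rose by 0.98 and 0.70, and Rbl2, a pocket protein of quiescent cells, fell by 0.88 on the log2 scale. Ccnd1 was at 651 to 686 CPM in basal and 713 to 760 in insulin samples, and was not called (0.16, adjusted p = 0.113). In the BCL2 family 3 of 14 fell (21.4%, against 15.4% of all tested genes) and none rose. The 3 were the survival factor Mcl1 (-0.50) and the death-promoting Bmf (-0.43) and Bcl2l11 (-0.38). Without basal replicate 3, 1 member was called higher, and with the offset 5 were lower.

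Of 49 ribosome biogenesis genes 25 rose and 6 fell, 51% and 12.2% against 16.2% and 15.4% of all tested genes. The median was 0.28, and 0.10 in DKD. Rrp12, an export factor of ribosomal subunits, rose from 76.9 to 90.1 CPM to 158 to 187 (log2 fold change 0.97, adjusted p = 3.3e-11), and Rrp9 by 0.84. The nucleolar proteins Npm1 and Ncl fell instead, Npm1 from 889 to 1256 CPM to 547 to 630 (log2 fold change -0.84) and Ncl by 0.36 on the log2 scale. Npm1 belongs to the 135 genes of the sample split, although it fell in DKD too (-0.55), and the call of Ncl was lost with the offset. Of 82 cytosolic ribosomal protein genes 5 were higher and 6 lower (6.1% and 7.32%). The median was 0.03, against -0.17 in Control, -0.17 in FoxK2 KD and -0.22 in DKD. With the offset the median was -0.11, none was higher and 19 were lower. Single libraries moved these counts too: without basal replicate 2 8 were higher, without basal replicate 3 or insulin replicate 1 3, without insulin replicate 2 2, and without basal replicate 3 or 4 11 were lower.

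Early response genes, which serum or insulin raise within an hour, were measured here at 6 h. Of 24, 18 were tested, 3 rose and 4 fell, 16.7% and 22.2% against 16.2% and 15.4% of all tested genes. With the GC and length offset 1 rose and 7 fell. Fosl1 was at 3.85, 4.95, 4.94 and 5.89 CPM in basal and 20.7, 13.8, 12.3 and 14.8 in insulin samples, a rise of 3.16-fold without overlap (adjusted p = 7.2e-07). Egr1 fell from 9.18 to 14.7 CPM to 4.06 to 7.47 (log2 fold change -1.11), Klf11 by 0.97 and Klf6 by 0.45 on the log2 scale. Myc was at 66.1, 46.5, 49.9 and 57.5 CPM in basal and 45.1, 48.2, 43.6 and 46.0 in insulin samples. The groups overlapped, and Myc was not called (-0.27, adjusted p = 0.0700), but it was with the offset (-0.42), without basal replicate 2 (-0.35) and without basal replicate 3 (-0.33). Its effect was -0.62 in Control and -0.82 in DKD, and the difference from DKD was 0.55 (adjusted p = 0.0461, and 0.292 with the offset).

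Of 15 feedback inhibitors of the ERK pathway, 4 rose and 1 fell, 26.7% and 6.67% against 16.2% and 15.4% of all tested genes. Without insulin replicate 1, 2 fell, and with the offset 1 rose. Phlda1 rose by 1.08 and the phosphatase Dusp4 fell by 0.66 on the log2 scale. Dusp6 (0.07, adjusted p = 0.531) and Dusp5 (0.71, adjusted p = 0.0734) were not called, although Dusp5 was without insulin replicate 2 (0.88). Spry4, at under 3 CPM in every sample, had a log2 fold change of 1.24 (adjusted p = 0.0459) and was not called without any one of 7 of the 8 samples (1.04 to 1.29) or with the offset (1.23, adjusted p = 0.0502).

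Of 21 HIF targets 11 rose and 3 fell, 52.4% and 14.3% against 16.2% and 15.4% of all tested genes. The median was 0.40, and 0.51 in DKD. Vegfa was at 15.6, 15.2, 12.9 and 15.5 CPM in basal and 42.5, 51.1, 42.8 and 39.3 in insulin samples, a rise of 2.97-fold without overlap (adjusted p = 2.2e-07). Higd1a of mitochondria rose by 1.25, while Mxi1, a MYC antagonist, and Ndrg1 fell by 0.79 and 0.44 on the log2 scale.

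Autophagy genes fell in 12 and rose in 7 of 40 tested cases, 30% and 17.5% against 15.4% and 16.2% of all tested genes. The 7 rises were 3 without basal replicate 2 and 4 without insulin replicate 2. Calcoco1, an autophagy receptor, was at 89.6, 86.5, 106.3 and 105.7 CPM in basal and 42.1, 45.5, 44.0 and 46.8 in insulin samples, a fall of 1.12 on the log2 scale without overlap (adjusted p = 3.8e-10; -1.28 in DKD). Wipi1, Atg14 and the receptors Nbr1 and Sqstm1 fell by 0.97, 0.69, 0.59 and 0.44, and the protease Atg4d rose by 0.59. Of 33 tested genes of fatty acid oxidation 9 fell (27.3%) and 2 rose (6.06%). The 2 rises were 4 without basal replicate 1 or insulin replicate 3. Acadm, medium-chain acyl-CoA dehydrogenase, fell from 117 to 139 CPM to 78.3 to 96.0 (log2 fold change -0.50, adjusted p = 2.3e-05), and Cpt1a, the entry step into mitochondria, by 0.27.

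All 11 tested genes encoded by mitochondrial DNA had negative values, and 6 were called lower (54.5%, against 15.4% of all tested genes). The median was -0.67, beside -0.39 in Control, -0.37 in FoxK2 KD and 0.07 in DKD. For mt-Nd5 the basal values were 2480, 2604, 2006 and 2074 CPM and the insulin values 1604, 1484, 1432 and 1226. The groups did not overlap, and the log2 fold change was -0.67 (adjusted p = 8.0e-05), while in DKD it was 0.11, a difference of -0.78 (adjusted p = 0.0118, and 0.0657 with the offset). mt-Nd1 overlapped and was not called (-0.17, adjusted p = 0.431). These transcripts have a median GC content of 37.1% against 49.3% over all tested genes. Of 74 nuclear genes of the respiratory chain 12 rose (16.2%, the share of all tested genes) and 1 fell, but 11 rose and 11 fell with the offset, so the count of falls depends on that setting. The 1 fall became 3 and 4 without basal replicates 3 and 4, and 2 without insulin replicate 2 or 3. Ndufb7 and Cox6b1 rose by 1.20 and 0.91, against 0.04 and -0.32 in DKD, and the difference for Cox6b1 (1.23, adjusted p = 0.0229) was also called with the offset (1.05, adjusted p = 0.0433). Of 74 mitochondrial ribosomal protein genes 14 rose (18.9%, near the 16.2% of all tested genes) and 7 fell (9.46%). The 7 were 4 without basal replicate 1 or insulin replicate 2 and 3 without basal replicate 3 or insulin replicate 3. Without basal replicate 2 they were 2.

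Interferon-stimulated genes were represented by 22 of 40, of which 7 fell and 1 rose (Cmpk2). These are 31.8% and 4.55%, against 15.4% and 16.2% of all tested genes. Ifit3 was at 51.4, 44.6, 60.0 and 53.0 CPM in basal and 12.9, 17.6, 14.0 and 15.6 in insulin samples. It fell to 0.287 of the basal level without overlap (log2 fold change -1.80 ± 0.15, adjusted p = 3.6e-11), with -2.55 in Control, -2.65 in FoxK2 KD and -2.14 in DKD. Ifit3b fell by 2.13 on the log2 scale, but it is a near-identical neighbour of Ifit3 and the authors' counting could split reads between them. Ifit2 fell by 1.05, whereas B2m, the light chain of MHC class I, was not called (-0.22, adjusted p = 0.175), but was without basal replicate 3 (-0.34). Cmpk2 (0.73, adjusted p = 0.0419) was not called without any one of 5 of the 8 samples (0.55 to 0.72). Of 27 chemokine and NF-kB feedback genes 6 fell (22.2%) and 1 rose (3.7%, Lcn2), or 2 rose without basal replicate 3 or insulin replicate 2 or 3. Ccl2 was at 1442, 1754, 1069 and 1186 CPM in basal and 818, 941, 968 and 785 in insulin samples (log2 fold change -0.63, adjusted p = 6.3e-05). It belongs to the sample split, and in DKD its value was 0.17, a difference of -0.80 (adjusted p = 0.0059, and 0.00237 with the offset). Lcn2 (0.75, adjusted p = 0.0122) was not called without basal replicate 2 (0.56) or insulin replicate 4 (0.49) or with the offset (0.53).

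Of 19 clock genes 5 rose and 4 fell, 26.3% and 21.1% against 16.2% and 15.4% of all tested genes. Arntl (BMAL1) rose from 7.92 to 9.90 CPM to 14.5 to 21.3 (log2 fold change 0.98, adjusted p = 0.00013), and Nfil3 by 0.74. The nuclear receptors Nr1d2 and Rora fell by 0.90 and 0.72 on the log2 scale, Nr1d2 being one of the split genes with -0.60 in DKD. The 5 rises were 3 without insulin replicate 2. Whether basal and insulin samples were harvested at the same time is not settled. For clock genes, insulin and time of harvest therefore cannot be told apart. Of 17 hepatocyte lineage factors 2 fell (11.8%, against 15.4% of all tested genes) and none rose. Foxa1 was among the 2 and fell by 0.35 (adjusted p = 0.0339, lost without any one of 5 samples, -0.36 to -0.30). With the offset 2 of the 17 were higher and 4 lower, without basal replicate 4 1 was higher, and Hnf4a was not called (0.05). Of 15 tested plasma protein genes 7 rose and 1 fell (46.7% and 6.67%), the 7 being 4 without basal replicate 3. Trf (transferrin) was at 10.2, 4.95, 8.70 and 9.36 CPM in basal and 18.5, 17.6, 14.8 and 18.2 in insulin samples, a rise of 2.04-fold (adjusted p = 0.00025). Ttr rose by 0.99 and Igfbp4 fell by 0.38 on the log2 scale. Among 17 FoxK factors and partners 2 were higher (Foxk2 and Dvl1) and 4 lower, 11.8% and 23.5% against 16.2% and 15.4% of all tested genes. None was higher without basal replicate 2 or insulin replicate 2, and 1 was without basal or insulin replicate 1. The 4 lower were 2 without insulin replicate 3. The corepressor Sin3a was among the 4 (-0.48, adjusted p = 0.00047).

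**Figure D3:**
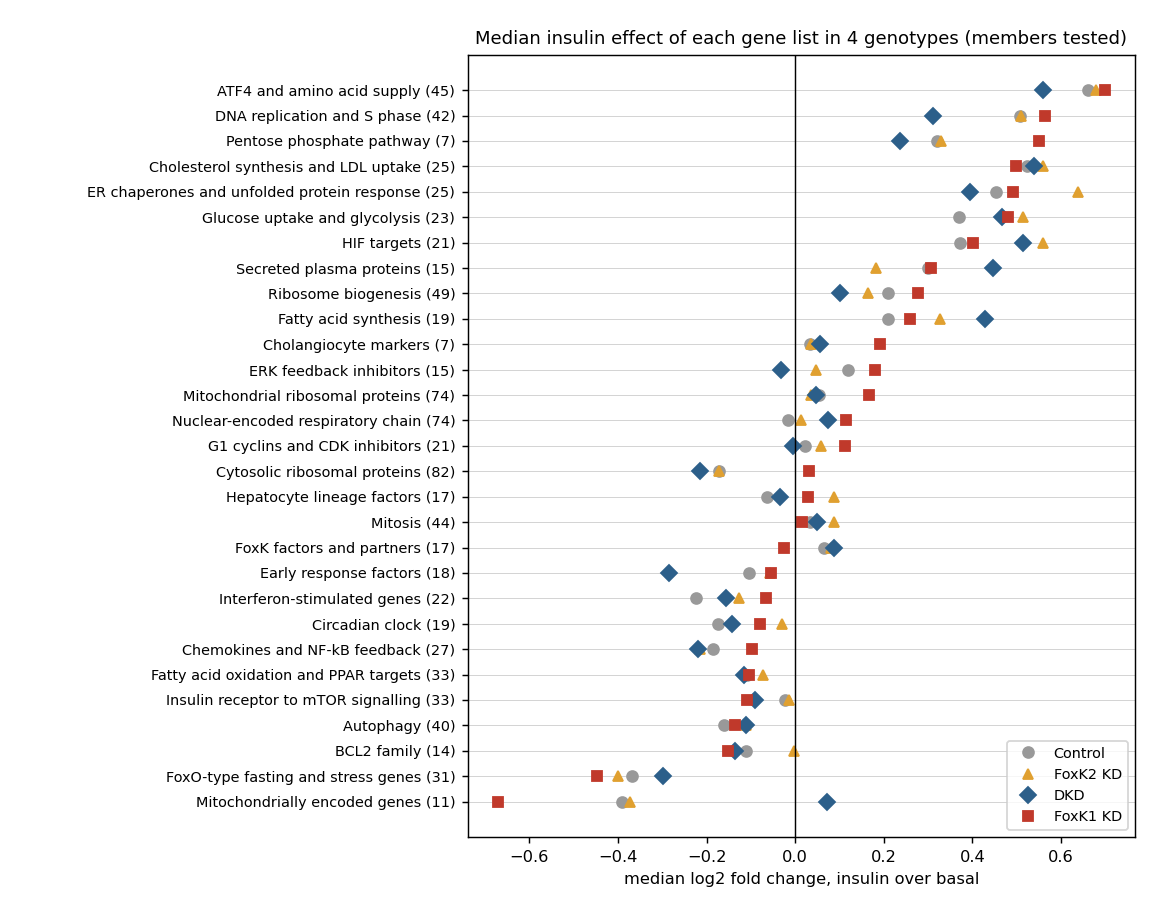
Median log2 fold change (insulin over basal) of the tested members of each gene list in FoxK1 KD (red squares), Control (grey circles), FoxK2 KD (yellow triangles) and DKD (blue diamonds). The FoxK1 KD and Control medians share the sign in the lists whose medians are farthest from 0, and mitochondrially encoded genes lie at -0.67 in FoxK1 KD and at 0.07 in DKD.

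The FoxK1 KD response was then compared with that of the other genotypes, which have basal and insulin samples of their own. Insulin raised 1405 genes in Control (12.4%), 1639 in FoxK2 KD (14.4%) and 945 in DKD (8.31%), and lowered 1485 (13.1%), 1554 (13.7%) and 908 (7.99%). With Control FoxK1 KD shared 923 rises, 50.1% of the FoxK1 KD and 65.7% of the Control rises, and 856 falls, 49.0% and 57.6%. With FoxK2 KD it shared 1106 rises (60.0% of FoxK1 KD, 67.5% of FoxK2 KD) and 1018 falls (58.3% and 65.5%). With DKD it shared 532 rises (28.9% and 56.3%) and 419 falls (24.0% and 46.1%). Called changes of opposite sign numbered 4, 0 and 40. In all 4 genotypes 416 genes were called higher and 319 lower. Over all tested genes the FoxK1 KD effects correlated with those of Control, FoxK2 KD and DKD at Pearson r = 0.69, 0.75 and 0.45, a description over 11368 genes that are not independent and that share the libraries of each group.

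No gene passed the test for a different insulin effect in FoxK1 KD and Control (0 of 11368, 0%, edgeR), although 1519 (13.4%) had an unadjusted p below 0.05 and 176 passed the threshold of the study. Limma-voom also called none and DESeq2 called 24. Leaving out Control basal replicate 2 gave 25 calls, and leaving out FoxK1 KD basal replicate 1 or Control insulin replicate 3 gave 1 each. The same test against FoxK2 KD called 0 genes (0%) by edgeR, limma-voom and DESeq2, with 917 (8.07%) at an unadjusted p below 0.05. A count of 0 does not show that the responses are alike, and the median SE of the difference from Control was 0.19 on the log2 scale. Among the genes with values above, Foxk1 itself had an insulin effect of -0.62 in Control and -0.26 in FoxK1 KD. The difference of 0.36 ± 0.19 (SE) was not called (adjusted p = 0.404, edgeR). In FoxK2 KD and DKD the effect was -0.41 and -0.42.

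Against DKD 699 genes differed, 6.15% of those tested, 338 with a higher value in FoxK1 KD and 361 with a lower one. With an offset that takes out the trend of every sample on GC content and transcript length the count was 164, and 122 of the 699 stayed called with the same sign. Across the 11346 genes with a GC content, the FoxK1 KD effect had a Spearman correlation of 0.33 with GC content, beside 0.08 in Control, 0.24 in FoxK2 KD and -0.21 in DKD, and -0.24 with length. These are descriptions across genes that share the libraries, and the part of GC content in the results was not tested beyond the offset. Under that offset 1629 genes were higher and 1761 lower in FoxK1 KD, and 2639 of the 3588 called genes stayed called with the same sign. Of 28 genes named here that differed from DKD, 6 stayed called, namely Scd2, Ccl2, Cox6b1, Klhl24, Mrpl16 and Gm42939. Klhl24, an adaptor of a ubiquitin ligase, was at 185, 207, 199 and 194 CPM in basal and 86.4, 67.9, 89.8 and 71.6 in insulin samples. It fell by 1.31 on the log2 scale without overlap and by 0.59 in DKD, a difference of -0.72 (adjusted p = 0.00749, and 0.0473 with the offset).

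**Figure D4:**
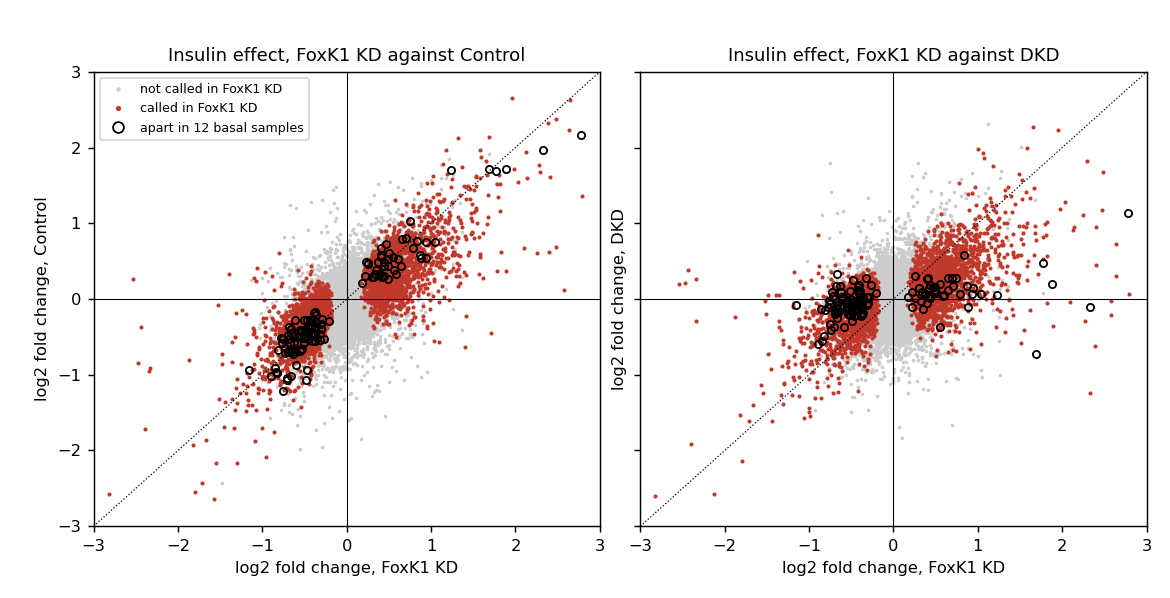
Log2 fold change (insulin over basal) of each tested gene in FoxK1 KD (x axis) against Control (left) and DKD (right), with genes called in FoxK1 KD in red, other genes in grey, the 135 genes of the sample split as open circles and the dotted line of equal effects. The open circles lie closer to the dotted line in the Control panel than in the DKD panel, where most are near 0 on the y axis. This follows largely from how the 135 genes were chosen. The 19 genes beyond 3 in any genotype are not fully shown.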

How the data were processed

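Poly(A) RNA of AML12 cells was sequenced by the authors, who deposited 1 table of raw counts per gene for each of the 30 samples. The submitters' processing notes name CASAVA 1.8, STAR 2.4.2a, featureCounts and the build GRCm38.p4, and counting options such as strand are not given in the sources used here. Samples were grouped by their titles. Gene names, positions, GC content and length came from GENCODE M21 (GRCm38), where 48435 of 49089 identifiers were found, and promoter windows from RefSeq on GRCm38.p6.

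The counts were tested with edgeR 4.0.16 (R 4.3.3): filterByExpr, TMM scaling, 1 quasi-likelihood model of 8 groups, contrasts of insulin minus basal and their differences, Benjamini-Hochberg adjustment and a threshold of 0.05. The filter is run on all groups, so 11368 genes remained. Reported CPM use TMM-scaled library sizes, fold changes come from the model, and errors are the fold change over the root of the F statistic. Alternatives were limma-voom (limma 3.58.1), DESeq2 1.42.0, other filters and scalings, thinning to the smallest total, a GC and length offset, a replicate block and leaving out each replicate. The offset for the differences from DKD and FoxK2 KD and the removal of the 135 split genes were chosen after seeing the data. The model was tested on simulated data.

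The samples and gene lists were chosen with earlier results of these data known, so list counts are descriptions without a set test. Genes were named by rule: the targets, the 15 largest rises and 15 largest falls (mean log2-CPM not under 2, basal and insulin samples apart), up to 3 called members each way and the 2 of highest CPM of each list, and a fixed set of insulin genes. The markers Krt8, Krt18, Alb and Apob came from the marker list, and some genes that the rule names are not reported here. No pair of FoxK1 KD replicates agreed within sampling noise (12 pairs, chi-square per degree of freedom 1.70 to 5.60). With 2345903 to 4423978 counts a sample, the median SE of a fold change was 0.13 on the log2 scale.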

Additional observations from a re-analysis of the deposited data

Results flagged for a closer look

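In 17 of 314 groups of 4 samples, 1 FoxK1 KD sample stood apart from the other 3 by more of the group's range than Dixon's critical value allows. Chance alone sets about 1 in 20 groups apart in this way. In CPM these samples were Mvd at 93.1 in basal replicate 2, Mvd at 271 in insulin replicate 2, Srebf1 at 193 in basal replicate 2, Mthfd2 at 29.7 in basal replicate 2, Gars at 1056 in insulin replicate 2, Hyou1 at 306 in insulin replicate 4, Ccne1 at 7.53 in basal replicate 3 and Cdc6 at 72.0 in insulin replicate 4. They also included Vegfa at 12.9 in basal replicate 3, Higd1a at 14.4 in insulin replicate 3, Ifit2 at 15.7 in insulin replicate 3, Ndufb7 at 12.5 in basal replicate 2, Ncl at 731 in insulin replicate 2, Dusp7 at 26.4 in basal replicate 2, Rps21 at 75.7 in insulin replicate 1, Sin3a at 94.0 in insulin replicate 3 and Alb at 24.4 in basal replicate 1.

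The insulin effect differed between FoxK1 KD and DKD cells by edgeR's test of the difference, adjusted over all tested genes, for 28 of the genes given values. On the log2 scale the FoxK1 KD effect was higher for Pmvk (0.74), Mvd (0.58), Slc2a1 (0.57), Akt1 (0.46), Shmt2 (0.73), Ccne1 (0.97), Ccnd3 (0.50), Fosl1 (1.08), Myc (0.55), Lcn2 (1.12), Ndufb7 (1.15), Cox6b1 (1.23), Krt8 (0.72), Dusp7 (0.85), Mrpl16 (0.65) and Krt18 (0.66). It was lower for Scd2 (-0.54), Cdkn1b (-0.64), Sesn3 (-0.50), Deptor (-0.51), Slc38a2 (-0.41), Ccl2 (-0.80), mt-Co1 (-0.63), mt-Nd4 (-0.79), Klhl24 (-0.72), mt-Nd2 (-0.75) and mt-Nd5 (-0.78). Gm42939 had a fitted difference of 7.91, a value that depends on the prior count because all FoxK1 KD basal samples were at 0. With the GC content and length offset 6 of the 28 remained called. DKD basal samples also lie on the other side of the sample split, so genotype and that split cannot be told apart in these differences.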

How the results depend on the processing

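In FoxK1 KD cells 933 genes were higher and 530 lower at the threshold of the study, against 1842 and 1746 at an adjusted p below 0.05. The other alternatives stayed within 1.5 times of these counts. Leaving out 1 replicate gave 1469 to 1682 higher and 1464 to 1626 lower genes. The difference from Control, with 0 calls by edgeR, had 24 by DESeq2, 174 with every gene of at least 1 count in any sample, 176 at the threshold of the study and 0 to 25 when 1 replicate was left out. The difference from DKD fell from 699 to 164 genes with the GC content and length offset. No result changed sign among those called.

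Samples with the same replicate number did not deviate together (correlations of -0.10 to 0.02, beside -0.09 to 0.09 for different numbers). No pairing by number was seen, though these values cannot exclude a weak one. A replicate block gave 1818 higher and 1694 lower genes, 0 calls against Control and FoxK2 KD and 685 against DKD. Counting each of 157 genes followed by name under each alternative, 2639 results kept their side of the threshold, 148 lost a call and 16 gained one. With every library thinned to the smallest total, 1535 genes were higher and 1563 lower.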
